A study of Mus musculus with 6 samples.

Results

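The renin-angiotensin system was followed through 7 mouse genes, Agt, Ren1, Ace, Agtr1a, Agtr2, Lnpep and Atp6ap2, taken by gene symbol from the platform annotation of the arrays. Of these, 5 had at least 1 probe set annotated to them alone, which gave 8 probe sets of 43057 and 5 genes of 17720. Ren1 (renin) and Lnpep (the angiotensin IV-binding aminopeptidase) were not analysed here. Agt, Agtr1a and Agtr2 had 1 probe set each, Ace had 2 and Atp6ap2 had 3, and a gene was read from its brightest probe set, by the mean of the 6 arrays.

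RNA from mouse adipocytes was measured on 6 arrays, 2 for each of 3 groups. The bone marrow-derived adipocytes were flow-sorted from the adipocyte fraction of gonadal fat in mice that had received a marrow transplant. Donor cells were marked by GFP, a green fluorescent protein, on the array called replicate 1, and by LacZ, the bacterial beta-galactosidase, on replicate 2. Gonadal white adipocytes and intrascapular brown adipocytes were the other groups. All groups shared collagenase digestion, flotation and RNA amplification, and each sample pooled at least 6 sorts of about 5000 cells. Strain, age and sex are not stated in the labels, nor is it stated whether replicates are separate animals. The p-values therefore measure the spread between these samples, part of which may be technical. A sort for a donor marker selects cells by origin and not by type.

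Renin cuts angiotensinogen, the product of Agt, to angiotensin I, and angiotensin-converting enzyme (Ace) trims that to angiotensin II. Angiotensin II acts through the type 1 receptor (Agtr1a, with its close copy Agtr1b) to constrict vessels and retain salt, and through the type 2 receptor (Agtr2), whose effects often oppose these. Atp6ap2, the (pro)renin receptor, is also an accessory subunit of the vacuolar proton pump. Liver is the main source of angiotensinogen, and white fat is a known further source.

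The labels were checked against marker genes. Lists of 7 adipocyte and 5 brown adipocyte markers had means of 11.62 to 11.95 and 4.35 to 6.39 on the log2 scale in bone marrow-derived arrays, against 12.86 to 12.98 and 5.95 to 6.57 in white and 12.61 to 12.63 and 11.80 to 12.03 in brown arrays. Endothelial markers (12 genes) averaged 11.48 to 12.03 in bone marrow-derived, 7.33 to 8.34 in white and 10.67 to 11.06 in brown arrays. Macrophage markers (9 genes) averaged 11.08 (GFP) and 8.55 (LacZ) in bone marrow-derived arrays, against 9.67 to 11.20 in white and 7.99 to 8.71 in brown arrays. Xist, the RNA that coats the inactive X chromosome, stood at 10.87 and 10.85 in bone marrow-derived arrays, against 2.99 and 3.35 in white and 3.39 and 3.36 in brown arrays. The Y-linked gene Eif2s3y stood at 9.15 (GFP) and 5.35 (LacZ) in bone marrow-derived arrays, against 10.80 to 11.61 in white and brown arrays. Both markers were thus at high level on the GFP array, and sex cannot be told apart from group in any comparison with the bone marrow-derived cells.

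The promoters of the precursor gene, the converting enzyme and the (pro)renin receptor are shown because these members behaved differently: Agt varied most over the arrays, the Ace probe sets disagreed, and Atp6ap2 varied little. Agtr1a, which ranged by 4.12, had no promoter in the RefSeq table used. A link between promoter sequence and expression was not tested. Each sequence runs 5′ to 3′ on the gene's strand from 250 bases before to 50 bases after a RefSeq start site in build GRCm38.p6. Capitals mark matches on either strand to the TATA-box letters TATAAA, the CAAT-box letters CCAAT and the GC-box letters GGGCGG. The Agt region is chr8:124569657-124569956 (minus strand), the Ace regions are chr11:105967698-105967997 and chr11:105974939-105975238 (plus strand), and the Atp6ap2 region is chrX:12587509-12587808 (plus strand).
Agt: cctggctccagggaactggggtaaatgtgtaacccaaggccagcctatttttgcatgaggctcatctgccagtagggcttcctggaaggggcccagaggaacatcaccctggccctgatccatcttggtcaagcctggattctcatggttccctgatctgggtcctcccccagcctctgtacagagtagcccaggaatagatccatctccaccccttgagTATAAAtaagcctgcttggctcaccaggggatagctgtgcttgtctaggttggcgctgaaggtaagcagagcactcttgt
Ace start 1: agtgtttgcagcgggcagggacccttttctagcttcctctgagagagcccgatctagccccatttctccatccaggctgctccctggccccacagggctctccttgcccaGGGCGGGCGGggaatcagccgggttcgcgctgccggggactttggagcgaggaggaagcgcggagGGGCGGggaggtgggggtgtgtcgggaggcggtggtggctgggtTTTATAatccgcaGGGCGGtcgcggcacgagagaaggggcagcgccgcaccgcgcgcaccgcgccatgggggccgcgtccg
Ace start 2: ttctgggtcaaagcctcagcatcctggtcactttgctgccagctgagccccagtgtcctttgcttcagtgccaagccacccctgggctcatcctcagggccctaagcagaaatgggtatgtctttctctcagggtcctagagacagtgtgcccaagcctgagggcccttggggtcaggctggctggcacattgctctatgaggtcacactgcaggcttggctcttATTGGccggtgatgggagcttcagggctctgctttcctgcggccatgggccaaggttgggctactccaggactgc
Atp6ap2: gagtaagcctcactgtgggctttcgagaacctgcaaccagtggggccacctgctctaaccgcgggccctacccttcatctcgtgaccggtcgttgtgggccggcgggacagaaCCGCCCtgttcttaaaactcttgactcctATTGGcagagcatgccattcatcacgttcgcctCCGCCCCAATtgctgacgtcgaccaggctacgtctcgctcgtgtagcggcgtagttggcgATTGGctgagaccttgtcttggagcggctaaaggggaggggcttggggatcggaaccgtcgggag

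The Agt promoter held 1 TATAAA, with its first base at position -30 from the start site, 1 CpG and no match to CCAAT or GGGCGG. The Atp6ap2 promoter held 24 CpG, 3 CCAAT and 2 GGGCGG matches and no TATAAA. The first Ace start had 29 CpG, 4 GGGCGG matches, of which the pair at -140 and -136 overlap, and 1 TATAAA on the opposite strand. The second Ace start, 7241 bases downstream and inside the gene, had 2 CpG and 1 CCAAT. Among 32851 promoters of the same length in the table, 13.6% held TATAAA, 37.4% CCAAT and 35.7% GGGCGG, and the median was 7 CpG. A match is a string of letters and was not measured as a binding site.

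Among the members, the calls fell on the precursor and the type 1 receptor, which differed from white adipocytes in opposite directions. Bone marrow-derived cells had 11.7-fold less Agt and 10.9-fold more Agtr1a than gonadal white cells. Against brown adipocytes Agtr1a was 4.84-fold higher. Ace, Agtr2 and Atp6ap2 passed the test in no comparison (limma, Benjamini-Hochberg adjusted p over 17720 genes, threshold 0.05). Of the 5 members 1 was called higher and 1 lower in bone marrow-derived than in white cells, where 12.2% of all genes were called higher and 13.6% lower. Against brown adipocytes 1 was higher and 0 lower, where 8.71% and 11.7% of all genes were called. Between white and brown adipocytes 1 was higher and 0 lower, where 3.87% and 5.34% were called. Counted by arrays that did not overlap, 1 member lay above white and 1 below in bone marrow-derived cells (28.5% and 35.8% of all genes), 2 above brown and 0 below (33% and 32%), and in white cells 2 above brown and 1 below (32.4% and 29.7%). The median log2 difference over the 5 members was 0.03, 0.29 and 0.15 in the 3 comparisons, against -0.07, 0.02 and 0.02 over all genes. Such counts among 5 genes are too few to set against these background shares, so nothing is read from the members as a set. With each array centred on its median, the shares of all calls that were higher became 36.6%, 28.5% and 41.6% in the 3 comparisons, where they were 47.4%, 42.7% and 42% on the deposited scale, a centring that shifted the all-gene median by -0.168, -0.194 and -0.026.

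**Figure D1:**
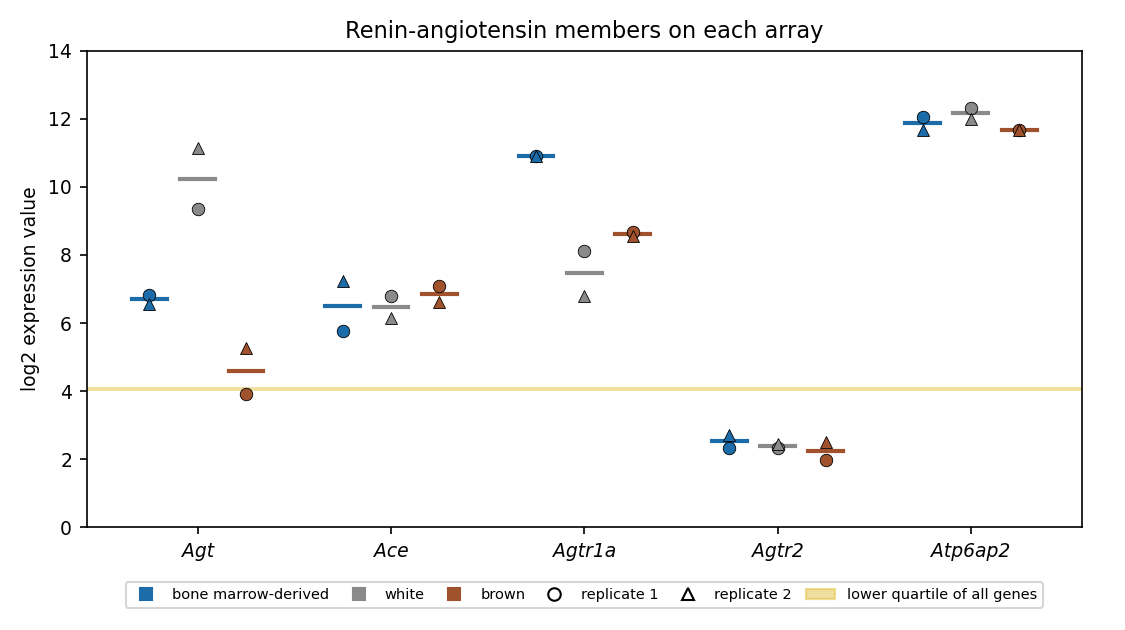
Log2 expression value (y axis) of the 5 measured members on each array, with circles for replicate 1, triangles for replicate 2 and a bar at each group mean (n = 2). Agt is highest in white and Agtr1a highest in bone marrow-derived adipocytes, while Agtr2 lies below the lower quartile of all genes (4.01 to 4.13) on every array.

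Agt, which encodes the single precursor of all angiotensin peptides, had log2 values of 6.82 and 6.57 in bone marrow-derived adipocytes. White adipocytes had 9.34 and 11.15, and brown adipocytes had 3.92 and 5.27. The groups did not overlap, and the order was white, bone marrow-derived, brown. Brown replicate 1 lay just below the lower quartile of its array (4.02), so the difference from brown cells may understate the fold.

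Agt differed from white cells by -3.55 ± 0.71 on the log2 scale in bone marrow-derived adipocytes (limma SE, n = 2 per group, adjusted p = 0.0214). White exceeded brown adipocytes by 5.65 ± 0.71, a 50.1-fold difference (adjusted p = 0.0152). The neighbours at the low end did not pass: bone marrow-derived minus brown was 2.10 ± 0.71 (adjusted p = 0.0985), although both marrow-derived arrays lay above both brown arrays, as they did for 33% of all genes. The 95% interval of that difference ran from 0.30 to 3.89. White replicate 2 stood 1.81 above white replicate 1, the widest gap within a group for Agt.

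The Agt call between bone marrow-derived and white adipocytes depended on single arrays. It was lost with the GFP array left out (-3.68, adjusted p = 0.0511), with the LacZ array left out (-3.43, adjusted p = 0.0676) and without white replicate 2 (-2.65, adjusted p = 0.0656), with the lone array of a group assumed to vary like the other groups. The difference was -4.46 without white replicate 1, and its direction held each time. The white against brown call was lost without brown replicate 1 (4.97, adjusted p = 0.124) or brown replicate 2 (6.33, adjusted p = 0.0814), fits in which 0 of all 17720 genes were called higher.

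Of 7 adipocyte markers 3 were called lower, 0 higher and 4 not at all in bone marrow-derived against white arrays, where Agt was lower too. Of the 7, Fabp4 (-0.03) and Pparg (-0.13) overlapped between these groups. Against brown arrays 2 of 7 were lower and 0 higher, while Agt was 2.10 higher and not called. Of all genes 13.6% were called lower than in white and 11.7% lower than in brown. The summed linear level of the adipocyte markers was 29453 to 36154 in bone marrow-derived, 56147 to 59921 in white and 48408 to 48697 in brown arrays. In such pooled samples fewer cells of a type and less RNA per cell cannot be told apart. No adipocyte marker fell below the lower quartile on any array. The summed macrophage level differed between the GFP and LacZ arrays (37867 and 8667), on which Agt stood at 6.82 and 6.57. Between white and brown arrays, where Agt differed most, 4 of 8 fibroblast and progenitor markers and 2 of 6 mesothelial markers were higher in white. Bone marrow-derived arrays, with less Agt than white, had 1 of the 8 fibroblast and progenitor markers higher than white and 0 lower. Of the 6 mesothelial markers 0 were called in that comparison. Against brown arrays, where Agt was 2.10 higher and not called, bone marrow-derived arrays had 5 of the 8 fibroblast and progenitor markers higher. There 4 of the 6 mesothelial markers were also higher, and 0 of either list were lower. Of all genes 8.71% were called higher in that comparison. The part of these cells in the result was not tested.

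Of 9 measured genes known to regulate Agt transcription, 0 passed between bone marrow-derived and white adipocytes (limma), with 2 at an unadjusted p under 0.05. The largest difference was in Cebpa, a transcription factor of adipocytes and liver, at -1.36 ± 0.41 (adjusted p = 0.0627). Its values were 12.29 and 11.06 in bone marrow-derived arrays, against 13.00 and 13.08 in white and 13.04 and 13.03 in brown arrays. Against brown adipocytes Cebpd, an acute-phase member of the same family, was higher (1.16 ± 0.28, adjusted p = 0.0415). Cebpb (-1.02 ± 0.22, adjusted p = 0.0302) and the E-box factor Usf2 (-0.90 ± 0.20, adjusted p = 0.0346) were lower, where 8.71% of all genes were called higher and 11.7% lower. Each of these 3 calls was kept in 1 of the 6 fits with an array left out, with adjusted p up to 0.181, 0.145 and 0.156. Between white and brown adipocytes 0 of 9 passed, with 2 at an unadjusted p under 0.05. The widest difference there was in Cebpb, at -0.98 ± 0.22 (adjusted p = 0.0531).

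**Figure D2:**
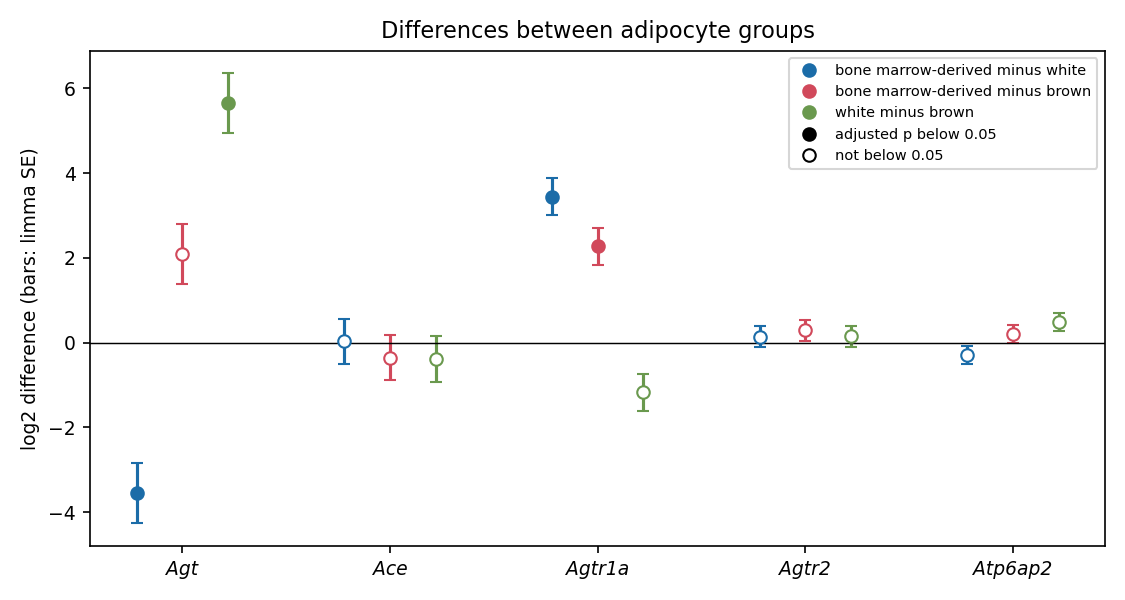
Log2 difference (y axis, with limma's SE as bars) for each measured member in bone marrow-derived minus white, bone marrow-derived minus brown and white minus brown adipocytes, filled where the adjusted p was below 0.05. Filled points are Agt at -3.55 and 5.65 and Agtr1a at 3.44 and 2.27.

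Atp6ap2, the (pro)renin receptor and proton pump subunit, stood at 12.07 and 11.66 in bone marrow-derived, 12.32 and 12.00 in white and 11.67 and 11.67 in brown adipocytes. Its values spanned 0.66 over the 6 arrays. The differences were -0.29 ± 0.22 for bone marrow-derived minus white (adjusted p = 0.381), 0.19 ± 0.22 for bone marrow-derived minus brown (adjusted p = 0.557) and 0.49 ± 0.22 for white minus brown (adjusted p = 0.232). The 95% intervals were -0.84 to 0.25, -0.35 to 0.74 and -0.05 to 1.03. The other 2 probe sets differed in the same directions, with -0.24 and -0.47 against white and 0.17 and 0.17 against brown. On the second of these both bone marrow-derived arrays lay below both white and above both brown arrays, unlike on the main probe set. Of all genes 35.8% and 33% did so, and neither difference passed.

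Partners of Atp6ap2 in the vacuolar proton pump were read from a list. Of 13 measured pump genes 6 were lower and 0 higher than in white cells in bone marrow-derived adipocytes, where 13.6% of all genes were called lower, with a median log2 difference of -0.80 against -0.07 over all genes. Atp6v1b2, of the catalytic head, differed by -1.43 ± 0.32 (adjusted p = 0.0294), and Atp6v0a1, of the membrane sector, by -1.40 ± 0.30 (adjusted p = 0.0271). Atp6v1c1, of the stalk that joins the sectors, differed by -1.07 ± 0.20. Against brown adipocytes 2 of 13 were lower, Atp6v1c1 (-0.91 ± 0.20) and Atp6v1h (-0.64 ± 0.16), where 11.7% of all genes were called lower. Between white and brown 0 passed, with 2 at an unadjusted p under 0.05. The largest there was Atp6v0a1 at 1.18 ± 0.30 (adjusted p = 0.0775). With 1 array left out the difference of Atp6v1h from white cells was called in 5 of 6 fits (lost without white replicate 2). Those of the other 5 pump genes were called in 1 or 2 of 6, each lost without either brown array. Leaving out brown replicate 1 or brown replicate 2 gave the same fit in this comparison. Against brown cells the call on Atp6v1c1 was lost without the GFP array or either brown array (-1.07 to -0.75, adjusted p up to 0.178), and that on Atp6v1h with any array left out (-0.73 to -0.54, adjusted p up to 0.233). Adipocyte markers stood lower beside them: 3 of 7 were lower than in white and 0 higher, with a median of -0.95, and their part in the pump values was not tested. The difference between Atp6ap2 and its partners was not tested. Atp6ap2 and Agtr2 are X-linked, and Xist differed by 7.69 and 7.48 between bone marrow-derived and white or brown arrays.

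Ace, the peptidase that makes angiotensin II and breaks down bradykinin, had log2 values on its main probe set of 5.75 and 7.25 in bone marrow-derived, 6.79 and 6.15 in white and 7.08 and 6.63 in brown adipocytes. The GFP and LacZ arrays enclosed all the others, so the groups overlapped. The differences were 0.03 ± 0.54 for bone marrow-derived minus white (adjusted p = 0.976), -0.35 ± 0.54 for bone marrow-derived minus brown (adjusted p = 0.672) and -0.39 ± 0.54 for white minus brown (adjusted p = 0.699). Their 95% intervals ran from -1.32 to 1.38, from -1.70 to 1.00 and from -1.74 to 0.96. The difference from white cells had no stable sign: it was -0.72 with LacZ and 0.78 with GFP left out, -0.14 with arrays centred on their medians and -0.11 after quantile normalization.

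The second Ace probe set gave another pattern. It read 6.47 and 7.77 in bone marrow-derived, 5.73 and 5.03 in white and 6.85 and 6.24 in brown adipocytes. Both white arrays were the lowest of the 6. With every probe set tested by itself, bone marrow-derived exceeded white adipocytes by 1.74 ± 0.50 (adjusted p = 0.0565), and white minus brown was -1.17 ± 0.50 (adjusted p = 0.227), so neither passed. The gene is known to give a long somatic enzyme from an upstream start and a short testis form from an internal one, and which probe set reads which transcript was not determined here.

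Endothelial cells of most vessels carry Ace. Of 12 endothelial markers, bone marrow-derived arrays had 12 called higher against white and 1 against brown, and white arrays had 12 called lower against brown. Their summed linear level was 37091 to 53764 in bone marrow-derived, 2196 to 4502 in white and 23274 to 29296 in brown arrays, with no marker below the lower quartile on any array. Of the bone marrow-derived pair, LacZ was above GFP both in the endothelial mean (12.03 and 11.48) and on both Ace probe sets. Across groups the main probe set did not follow that mean. GFP had a higher endothelial mean than both brown arrays (11.06 and 10.67) but the lowest main-probe Ace value of all arrays (5.75). The part of these cells in the Ace values was not tested.

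**Figure D3:**
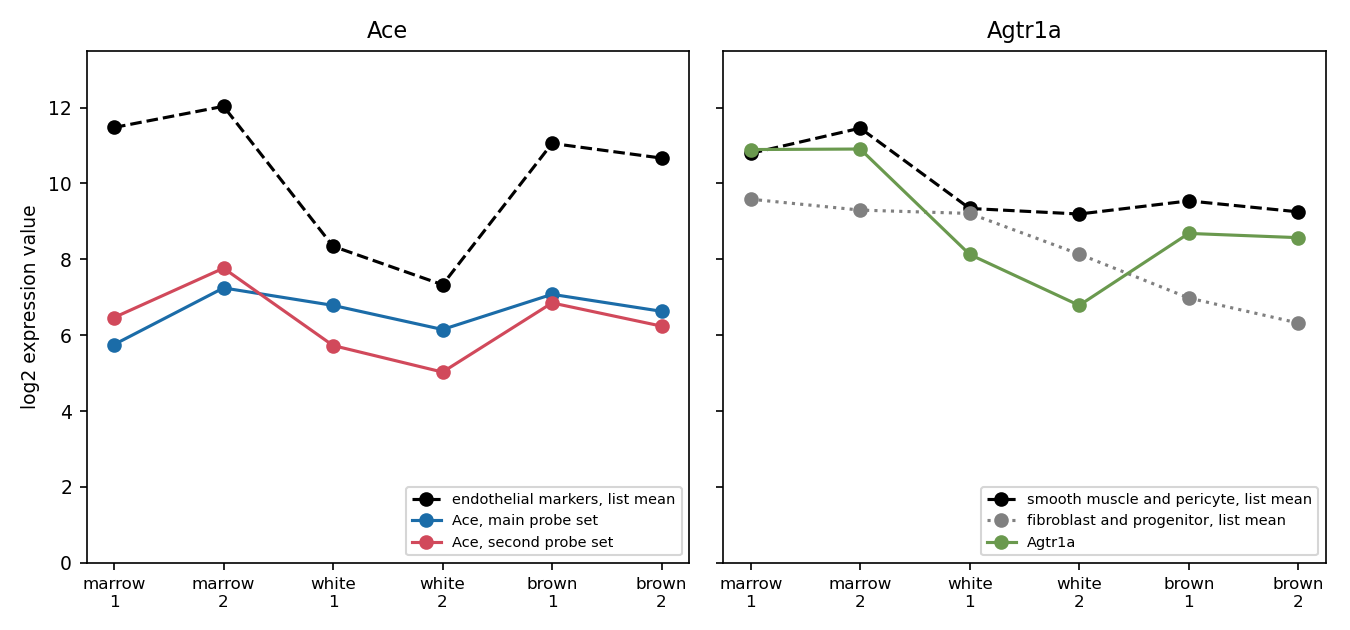
Log2 expression value (y axis) on each array (x axis, replicate number under the group) for Ace with the mean of 12 endothelial markers, and for Agtr1a with the means of 8 smooth muscle and pericyte and 8 fibroblast and progenitor markers. Lines only join the values of 1 gene or list. The second Ace probe set and the endothelial mean are both lowest on the white arrays, while the main Ace probe set is lowest on bone marrow-derived replicate 1. Agtr1a and both marker means drawn with it are highest on the bone marrow-derived arrays.

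Agtr1a, the main receptor of angiotensin II in mice, stood at 10.90 and 10.91 in bone marrow-derived adipocytes. White adipocytes had 8.13 and 6.79, and brown adipocytes had 8.68 and 8.57. The bone marrow-derived arrays were 0.01 apart and above all 4 other arrays, and the order was bone marrow-derived, brown, white.

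Agtr1a exceeded its white-cell level by 3.44 ± 0.44 on the log2 scale in bone marrow-derived adipocytes (limma SE, n = 2 per group, adjusted p = 0.00736) and its brown-cell level by 2.27 ± 0.44 (adjusted p = 0.0242). These comparisons share the bone marrow-derived arrays. White and brown adipocytes were not separated by the test, with white minus brown at -1.17 ± 0.44 (adjusted p = 0.172, 95% interval -2.27 to -0.07), although both white arrays lay below both brown arrays, as they did for 29.7% of all genes.

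The call against white adipocytes held with each array left out in turn, with a difference of 4.12 without white replicate 1 and 2.77 without white replicate 2. Leaving out brown replicate 1 or brown replicate 2 gave the same fit here. The call against brown adipocytes was lost with GFP left out (2.28, adjusted p = 0.0608), with LacZ left out (2.27, adjusted p = 0.064), and without brown replicate 1 (2.33, adjusted p = 0.115) or brown replicate 2 (2.22, adjusted p = 0.15). White against brown passed without white replicate 1 (-1.84, adjusted p = 0.0268).

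Smooth muscle cells and pericytes respond to angiotensin II through this receptor. Of 8 of their markers bone marrow-derived arrays had 5 higher against white and 4 higher against brown, with 0 lower. Their summed linear level was 19014 to 26931 in bone marrow-derived, 9779.7 to 10557 in white and 10309 to 12201 in brown arrays, and no marker lay below the lower quartile on any array. Of the 8, Myh11, the smooth muscle myosin, differed most from white (3.93 ± 0.34, adjusted p = 0.00391), and Acta2 (-0.07 ± 0.39, adjusted p = 0.923) and Mcam (-0.52 ± 0.32, adjusted p = 0.297) had negative differences that did not pass. Myh11 stood at 9.73 and 10.55 in bone marrow-derived, 6.11 and 6.32 in white and 6.82 and 6.30 in brown arrays. The mean of the 8 overlapped between brown (9.25 to 9.54) and white arrays (9.195 to 9.34), which Agtr1a values did not. Of 8 fibroblast and progenitor markers 1 was higher than in white and 5 higher than in brown. The mean of 12 endothelial markers had the group order of Agtr1a. It was 11.48 to 12.03 in bone marrow-derived, 10.67 to 11.06 in brown and 7.33 to 8.34 in white arrays. The part of these cells in the Agtr1a result was not tested.

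The 3 genes nearest to Agtr1a in pattern over the 6 arrays were Avpr1a, Tbx18 and Tpm2, by the root mean square difference of values centred on each gene's mean. That difference was 0.19 for Avpr1a, the vasopressin receptor of vessels, 0.19 for Tbx18, a T-box transcription factor, and 0.21 for Tpm2, a tropomyosin of contractile cells. Avpr1a stood at 8.85 and 9.34 in bone marrow-derived, 6.62 and 4.99 in white and 6.88 and 6.65 in brown arrays. For Agt the nearest were Fam110c (0.42), Slc9b2, a sodium-proton exchanger (0.59), and C6, a complement component (0.61). C6 stood at 7.78 and 6.29 in bone marrow-derived, 9.87 and 10.88 in white and 5.34 and 5.62 in brown arrays. For Ace they were Morn1 (0.12), the phosphoinositide phosphatase Synj2 (0.16) and Gen1, a DNA junction nuclease (0.17). The search ran over 15966 genes, so near matches over 6 arrays of the same libraries are a description only.

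**Figure D4:**
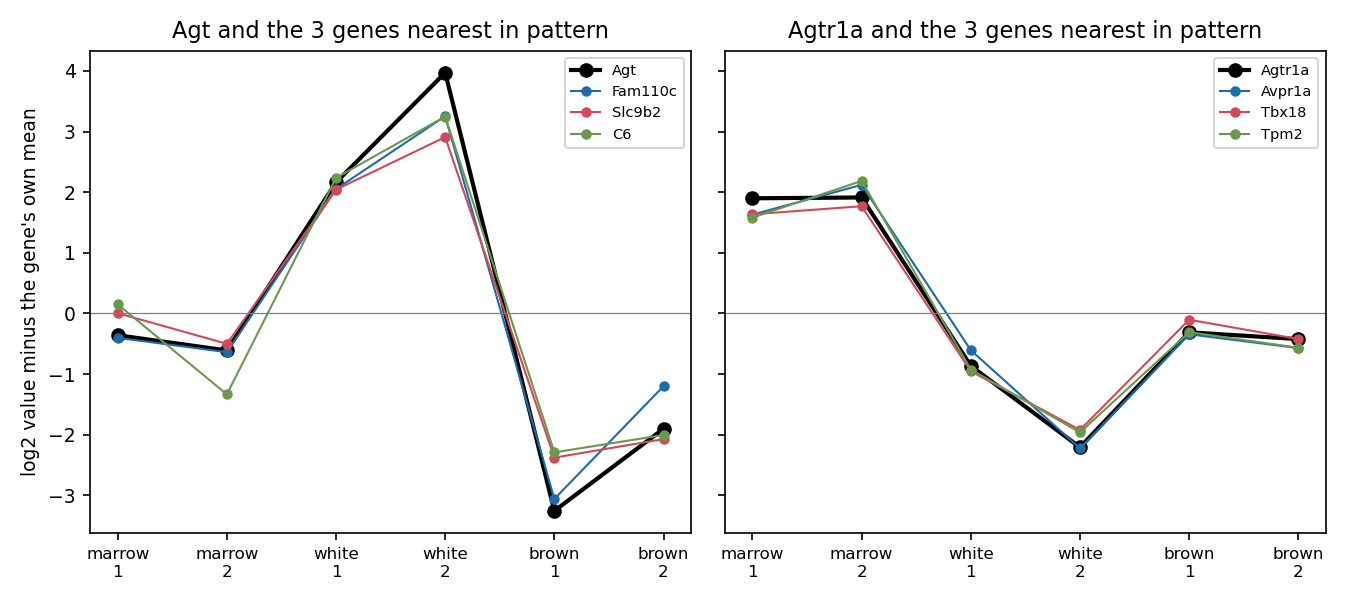
Log2 value minus the gene's own mean (y axis) on each array (x axis) for Agt and Agtr1a (black) and the 3 genes nearest to each in pattern (coloured). Lines only join the values of 1 gene. Agt and its neighbours are highest in white and lowest in brown arrays, and Agtr1a and its neighbours are highest in bone marrow-derived and lowest in white arrays.

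Agtr2, the type 2 receptor of angiotensin II, stood at 2.34 and 2.71 in bone marrow-derived, 2.32 and 2.46 in white and 1.97 and 2.50 in brown adipocytes. All 6 values lay below the lower quartile of their arrays, near the low end where values cannot be told from background, and the groups overlapped. The differences of 0.14 ± 0.25, 0.29 ± 0.25 and 0.15 ± 0.25 did not pass (adjusted p = 0.742, 0.457 and 0.751 for bone marrow-derived minus white, bone marrow-derived minus brown and white minus brown). The first was -0.03 with arrays centred on their medians and -0.05 with LacZ left out. Agtr1b, the second type 1 receptor gene, stood at 2.14 and 3.65 in bone marrow-derived, 2.43 and 2.34 in white and 2.72 and 2.61 in brown adipocytes, also below the lower quartile. Whether the probes of Agtr1a and of this close copy detect each other's transcripts was not tested.

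Other enzymes and receptors of the pathway were read from a list of 22 genes, of which 19 were measured. In bone marrow-derived adipocytes 5 were lower and 0 higher than in white, where 13.6% of all genes were called lower and 12.2% higher. The median log2 difference was -0.34 against -0.07 over all genes. Most of the list are peptidases, and so are the 5. The largest difference was in Mme, neprilysin, which cuts angiotensin I to a shorter vasodilator peptide and degrades natriuretic peptides. It stood at 7.48 and 4.26 in bone marrow-derived, 10.33 and 10.01 in white and 10.94 and 10.78 in brown adipocytes. The bone marrow-derived pair was far apart and below every other array. The same pair, GFP and then LacZ, also split in the macrophage mean (11.08 and 8.55) and in the mean of 6 mesothelial markers (8.08 and 6.07), and the part of these cells in the Mme values was not tested. Mme differed by -4.30 ± 1.00 from white (19.7-fold lower, adjusted p = 0.0324) and by -4.99 ± 1.00 from brown (31.9-fold lower, adjusted p = 0.027). The first call was lost without either white or either brown array (-5.91 to -2.69 over all 6 fits, adjusted p up to 0.112) and the other without either brown array (-6.61 to -3.38, adjusted p up to 0.151).

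Nln, neurolysin, an oligopeptidase that cleaves angiotensin I, stood at 9.48 and 9.12 in bone marrow-derived, 11.12 and 11.28 in white and 10.33 and 10.56 in brown adipocytes. It differed by -1.90 ± 0.20 from white (adjusted p = 0.00551), a call kept with any array left out, and by -1.14 ± 0.20 from brown (adjusted p = 0.02), a call lost without LacZ or either brown array (adjusted p up to 0.135). Prep, prolyl endopeptidase, differed from white by -1.13 ± 0.23 (adjusted p = 0.0235). The lysosomal protease Ctsd differed by -1.08 ± 0.27 (adjusted p = 0.0399) and the oligopeptidase Thop1, named after its value was seen, by -1.06 ± 0.27 (adjusted p = 0.0394). Agtrap, which binds the type 1 receptor and promotes its internalization, was the 1 gene that was higher against brown (1.40 ± 0.29, adjusted p = 0.0283), with 8.57 and 7.89 in bone marrow-derived, against 6.82 and 6.85 in brown adipocytes. Its difference from white, 0.59 ± 0.29, did not pass (adjusted p = 0.198). The calls on Prep, Ctsd and Thop1 were lost in 4, 5 and 5 of the 6 fits with an array left out (adjusted p up to 0.112, 0.141 and 0.171), and that on Agtrap in 3 (up to 0.157).

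Between white and brown adipocytes 0 of the 19 passed limma's test, with 10 at an unadjusted p under 0.05, and the median was 0.71 against 0.02 over all genes. No share of all genes at an unadjusted p is given, here or for the other lists, so nothing is read from such counts. Cma1, Mcpt4 and Cpa3 in this list are also mast cell markers, and the part of mast cells was not tested. The largest difference among the 19 was in Anpep, aminopeptidase N, which trims angiotensin III, at 2.76 ± 1.09 (adjusted p = 0.189), with 9.89 and 6.89 in white and 6.49 and 4.76 in brown adipocytes. A trended prior gave 1 call, an ordinary linear model 0, and leaving out white replicate 2 gave 3. The count against white cells was 1 of 19 with only the 4 arrays compared, without white replicate 1 or without either brown array, and 0 in the ordinary linear model. The count against brown cells was 0 without either brown array and in the ordinary linear model.

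**Figure D5:**
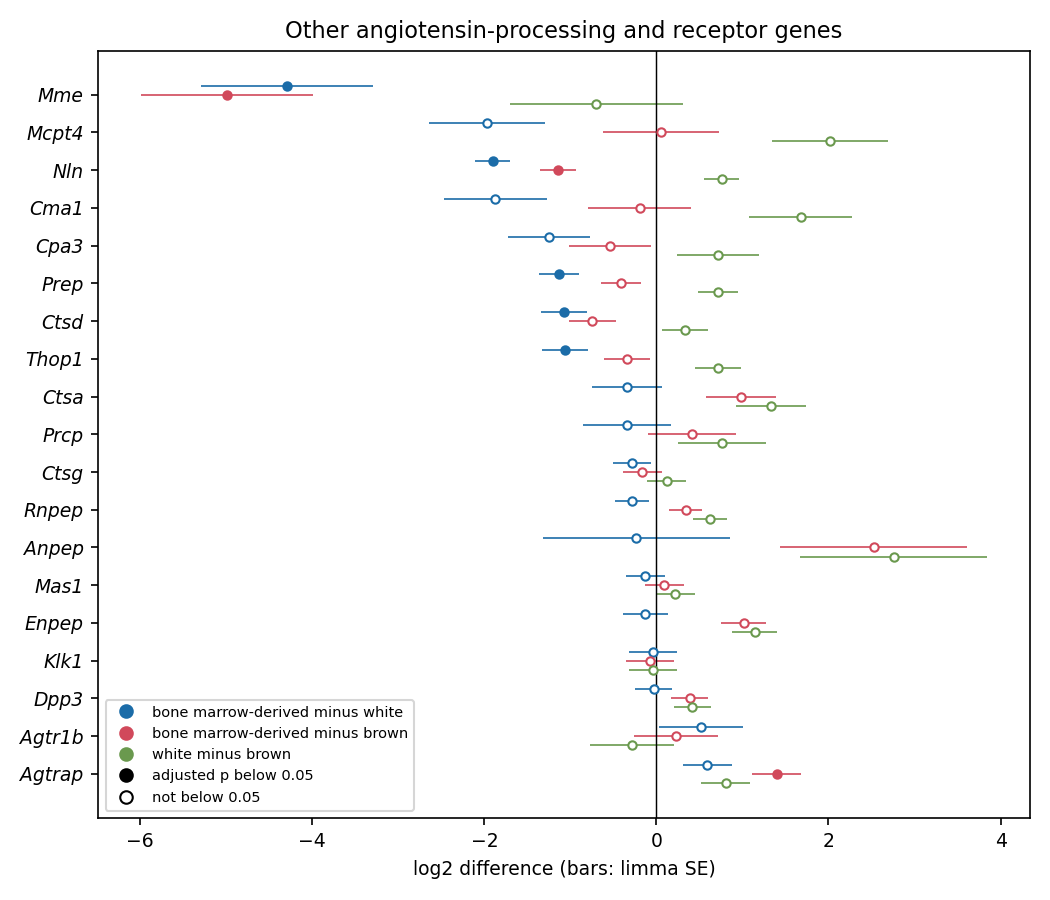
Log2 difference (x axis, with limma's SE as bars) of 19 further angiotensin-processing and receptor genes in the 3 comparisons, filled where the adjusted p was below 0.05. In bone marrow-derived minus white 5 points are filled and all are negative, and Mme lies farthest to the left at -4.30.

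Among 13 measured genes of type 1 receptor signalling, bone marrow-derived cells had 3 higher and 1 lower than white cells, where 12.2% and 13.6% of all genes were called. Vascular markers were higher in the same comparison, 12 of 12 endothelial and 5 of 8 smooth muscle and pericyte, and their part in these values was not tested. The regulator of G-protein signalling Rgs5, also a pericyte marker and so counted in both of these lists, was higher by 2.06 ± 0.34 (adjusted p = 0.0129). The receptor kinase Grk5 was higher by 1.93 ± 0.23 (adjusted p = 0.00675) and the tyrosine kinase Jak2 by 1.27 ± 0.17 (adjusted p = 0.00836), while Arrb1, beta-arrestin 1, differed by -0.80 ± 0.20 (adjusted p = 0.04). Against brown adipocytes Grk5 (1.17 ± 0.23, adjusted p = 0.0263) and Jak2 (1.03 ± 0.17, adjusted p = 0.0171) were higher and 0 were lower, where 8.71% and 11.7% of all genes were called. Jak2 stood at 11.41 and 11.39 in bone marrow-derived, 10.02 and 10.24 in white and 10.46 and 10.27 in brown adipocytes. White minus brown gave 1 higher, Arrb1 (0.97 ± 0.20, adjusted p = 0.0455), and 2 lower, Rgs5 (-1.88 ± 0.34, adjusted p = 0.0325) and Mtus1, which encodes a protein that binds the type 2 receptor (-0.92 ± 0.18, adjusted p = 0.0427). Of all genes 3.87% were called higher and 5.34% lower in white minus brown. With any array left out Rgs5, Grk5 and Jak2 kept their calls against white (adjusted p up to 0.0415). Arrb1 lost its call there in 5 of 6 fits, and all 5 calls against brown, in either comparison, were lost without either brown array.

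In a list of mineralocorticoid and glucocorticoid genes, not all of which lie downstream of angiotensin II, bone marrow-derived cells had 1 of 7 higher and 1 lower than white cells. These counts are close to the 12.2% and 13.6% of all genes. Hsd11b1, which regenerates active glucocorticoid inside fat cells, stood at 8.72 and 8.95 in bone marrow-derived, 11.85 and 11.75 in white and 11.76 and 11.98 in brown adipocytes. Adipocyte markers stood lower beside it, with 3 of 7 called lower than in white, 2 lower than in brown and 0 higher, and their part was not tested. Hsd11b1 differed by -2.96 ± 0.18 from white (adjusted p = 0.00352) and by -3.04 ± 0.18 from brown (adjusted p = 0.00206). Both calls were kept with any array left out (adjusted p up to 0.0199 and 0.0403). The aldosterone-induced kinase Sgk1 was higher than in white by 1.02 ± 0.28 (adjusted p = 0.049, lost in 5 of 6 such fits, up to 0.152), with 12.71 and 12.90 in bone marrow-derived, against 12.15 and 11.42 in white adipocytes. Between white and brown adipocytes 0 of 7 passed, with 3 at an unadjusted p under 0.05, and the largest difference was in Hsd11b2 at 2.00 ± 0.61 (adjusted p = 0.112).

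Lnpep rides in the insulin-responsive vesicles of adipocytes, and 9 of its partners there were measured although Lnpep was not analysed here. In bone marrow-derived adipocytes 4 were lower and 0 higher than in white, with a median of -0.83, and 3 were lower and 0 higher than in brown, with a median of -0.29. Of all genes 13.6% were called lower than in white and 11.7% lower than in brown, with medians of -0.07 and 0.02. Slc2a4, the glucose transporter GLUT4, stood at 9.78 and 9.32 in bone marrow-derived, 11.70 and 11.91 in white and 12.07 and 12.34 in brown adipocytes. It differed by -2.25 ± 0.23 from white (adjusted p = 0.00492) and by -2.65 ± 0.23 from brown (adjusted p = 0.00385). The sorting receptor Sort1 (-2.49 ± 0.23 and -1.53 ± 0.23) and the vesicle regulator Tbc1d4 (-2.34 ± 0.17 and -2.37 ± 0.17) were also lower in both comparisons, and Scamp3 was lower than in white (-0.83 ± 0.21). With any array left out, Slc2a4, Sort1 and Tbc1d4 kept their calls against white (adjusted p up to 0.0277) and Tbc1d4 against brown. Against brown Slc2a4 lost its call without brown replicate 2 (adjusted p = 0.0502) and Sort1 without either brown array, and Scamp3 was called in 1 of 6 fits. The lower adipocyte marker level given above for Agt stood beside these values too. Between white and brown adipocytes 0 of 9 passed, with 4 at an unadjusted p under 0.05, and Lrp1 had the largest difference (1.24 ± 0.28, adjusted p = 0.0584).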

How the data were processed

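The authors deposited 1 log2 value for every probe set and array. The submitters' processing notes name RMA and Partek but no version or order of use, and log base 2 was inferred from the range of the values. RMA gives no detection calls, equalizes the arrays and compresses differences near either end of the scale. The number of arrays limits the precision. Of 43057 probe sets, 33565 carried 1 symbol, 857 carried several and named no gene, and 8635 were unnamed here. A gene (17720 in all) was read from its probe set of highest mean. Symbols were checked against RefSeq (GRCm38.p6) by gene ID, and 0 needed an update. Promoters came from the RefSeq table of the same build, which held 6 of the 7 members and lacked Agtr1a.

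Group means of all 6 arrays were fitted with limma 3.58.1 in R 4.3.3 and moderated by empirical Bayes (3 residual and 2.35 prior degrees of freedom). The two-sided p-values were adjusted by Benjamini-Hochberg within each comparison, over every gene, and the script was tested on simulated data. The members and gene lists were chosen with earlier results of these data known. Named were all members, up to 4 called genes per list and comparison (or the gene with the largest difference), and the 3 genes nearest in pattern to each member that ranged by at least 1. The mast cell list (8 genes, means of 4.13 to 4.49 in bone marrow-derived, 4.07 to 5.00 in white and 4.12 to 4.36 in brown arrays) was also examined, and 2 of its markers were higher and 1 lower against white. Alternatives were another scaling, moderation, probe-set rule, filter, replicate block and leaving out each array. Leaving out either array of the group not compared gave the same fit as only the 4 arrays compared, because a lone array adds no residual. That fit therefore recurs in tallies over fits. A call lost in it was lost with fewer residual degrees of freedom, with the difference itself unchanged. Replicate numbers were not taken as pairs: the labels give no shared source, and deviations of same-numbered arrays correlated at 0.21, -0.0038 and 0.28 across genes.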

Additional observations from a re-analysis of the deposited data

How the results depend on the processing

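The counts over all genes moved most. On the deposited scale bone marrow-derived adipocytes had 2170 genes higher and 2409 lower than white and 1543 higher and 2068 lower than brown, and white had 686 higher and 946 lower than brown. With each array left out in turn these counts ran from 899 to 2137, 850 to 2144, 61 to 1405, 239 to 1723, 0 to 1036 and 5 to 1215. With only the 4 arrays compared they were 1355 and 1372 against white, and 1036 higher in white than brown. Bone marrow-derived against brown gave 1006 higher with arrays centred on their medians, the scaling whose shift is given with the members' counts. The ordinary linear model, with no moderation over 3 residual degrees of freedom, gave 254 and 301, 296 and 665, and 0 and 0. The other pathway genes called ran from 1 to 5, 0 to 4 and 0 to 3 with an array left out, and were 1 against white with only 4 arrays, 1 in white against brown with a trended prior, and 0 and 0 against white and brown in the ordinary linear model.

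Among the members, Agt lost its call in the ordinary linear model against white (-3.55, adjusted p = 0.114) and in white against brown (5.65, adjusted p = 0.124), as did Agtr1a against white (3.44, adjusted p = 0.067) and brown (2.27, adjusted p = 0.118). With an array left out, Agt ran from -4.46 to -2.65 against white, from 1.42 to 2.77 against brown and from 4.74 to 6.55 in white against brown. Agtr1a ran from 2.77 to 4.12, 2.22 to 2.33 and -1.84 to -0.50. The members that were never called changed sign: Ace ran from -0.72 to 0.78 against white and -1.10 to 0.39 against brown, Agtr2 from -0.050 to 0.32 against white and -0.12 to 0.42 in white against brown, and Atp6ap2 from -0.0091 to 0.40 against brown. Ace against white was -0.14 with centred arrays and -0.11 after quantile normalization, Ace against brown 0.11 as the mean of its probe sets, Agtr2 against white -0.033 and Atp6ap2 against brown -0.00022 with centred arrays. A filter on a mean of 5 removed Agtr2. With replicate number as a block the counts were 1879 and 2149, 1279 and 1787, and 624 and 640, and no member's call changed. Over all alternatives and results, 291 recomputed values kept their direction and side of the threshold or, for counts, stayed within 1.5 times, while 41 counts moved further, 13 values lost a call, 1 gained one and 11 changed sign. Fits that coincide, with an array of the group not compared left out, are each counted in these numbers. The number of arrays limits what could be called, and Agtr2 lay too near background to compare.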
